A study of Mus musculus with 8 samples.

Results

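The genes described here are 10 genes of transforming growth factor beta (TGF-beta) signalling: the ligands Tgfb1, Tgfb2 and Tgfb3, the receptors Tgfbr1, Tgfbr2 and Tgfbr3, the co-receptor Cd109, the intracellular mediators Smad3 and Smad7, and Inhba, the activin subunit gene. They were chosen by name from 22180 genes measured by at least 1 probe set with a single gene symbol, and each of the 10 had exactly 1 such probe set. The samples were 4 cultures of AML12 cells in which the VWA8 gene had been deleted with CRISPR/Cas9 and 4 cultures of wild-type AML12 cells, all differentiated, with 1 Affymetrix mouse array per culture. AML12 is a line of mouse hepatocytes from an animal carrying a human transgene for TGF-alpha, a ligand of the epidermal growth factor receptor that does not bind TGF-beta receptors. VWA8 is an ATPase of mitochondria. Both groups grew in medium with 10% fetal bovine serum, 0.005 mg/ml insulin, transferrin, selenium and 40 ng/ml dexamethasone, a synthetic glucocorticoid. The sources used here state neither how many knockout clones there were nor how the cells were differentiated, and an effect of the clone and one of the deletion cannot be told apart.

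TGF-beta ligands are secreted in a latent form, bound to their own propeptide and to latent TGF-beta binding proteins in the matrix, and act after release. The active dimer binds the type II receptor TGFBR2, often presented by the type III receptor TGFBR3 (betaglycan), and TGFBR2 then phosphorylates the type I receptor TGFBR1, which phosphorylates SMAD2 and SMAD3. In liver the pathway restrains hepatocyte growth, drives hepatocyte apoptosis and partial loss of epithelial features, and activates the stellate cells that lay down scar matrix.

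The median log2 signal was 4.27 to 4.33 on every array, and values correlated with r of 0.986 to 0.989 between knockout arrays, 0.985 to 0.989 between wild-type arrays, and 0.978 to 0.984 across genotypes. The Vwa8 probe set itself read 5.07 to 5.33 in knockout cells, against 8.91 to 9.01 in wild-type cells. The sources used here do not place its probes relative to the deletion. The hepatocyte markers were bright in both genotypes, with none of 11 below the array median. Of these 9 rose and 2, Krt8 and Krt18, fell past an adjusted p of 0.05 in limma. Of all genes 20.9% passed, and a larger share of bright ones. The summed linear signal of the 11 was 31580 to 32860 in knockout arrays and 25990 to 26580 in wild-type arrays. That sum weighs the brightest genes, such as Alb and Ttr, most. Of 12 markers of stellate cells and fibroblasts, 12 lay below the array median in knockout cells and 11 in wild-type cells, none passed the limma test (1 had an unadjusted p under 0.05), and their summed linear signal was 164 to 191 in knockout arrays and 177 to 192 in wild-type arrays. Endothelial markers (7 of 8 below the median in each genotype) and macrophage and leukocyte markers (6 of 8 in each) were also mostly dim. None of either list passed in limma, and 0 and 1 had an unadjusted p under 0.05. Of 6 cholangiocyte and progenitor markers, Krt7 fell (-0.52 ± 0.083) and Cftr fell (-0.92 ± 0.108), and the list's summed signal overlapped between knockout arrays (1521 to 1640) and wild-type arrays (1543 to 1637). The part of these marker changes in the results was not tested. In such RNA from whole cultures, fewer cells of a type and less RNA per cell cannot be told apart.

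Promoter windows, from 250 bases before to 50 bases after a start site, were taken from the RefSeq table (GRCm38.p6) for 6 of the 10 genes. The 3 shown are those of Tgfb1 and Tgfb2, whose signals were both lower in the knockout, and of Inhba, whose transcript was higher. They run 5′ to 3′ on the gene's strand, at chr7:25686752-25687051 (plus strand), chr1:186705940-186706239 (minus strand) and chr13:16011601-16011900 (plus strand). The annotated Tgfb1 gene begins at 25687002, inside its window. The annotated Tgfb2 gene extends to 186709697, upstream of its window on the minus strand, and that of Inhba begins at 16004256, also upstream. The Tgfb2 and Inhba windows thus surround start sites inside the annotated gene. Which start sites these cells used was not tested. Capitals mark CAGACA (a sequence bound by SMAD proteins), TATAAA (the TATA box core) and GGGCGG (the GC box), each read on both strands.
Tgfb1: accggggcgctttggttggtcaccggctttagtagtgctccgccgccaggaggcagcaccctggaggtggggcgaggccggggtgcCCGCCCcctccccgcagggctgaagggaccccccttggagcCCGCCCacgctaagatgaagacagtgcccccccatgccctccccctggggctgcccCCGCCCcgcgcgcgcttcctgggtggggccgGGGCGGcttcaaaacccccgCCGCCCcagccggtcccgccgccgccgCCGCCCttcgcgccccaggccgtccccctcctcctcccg
Tgfb2: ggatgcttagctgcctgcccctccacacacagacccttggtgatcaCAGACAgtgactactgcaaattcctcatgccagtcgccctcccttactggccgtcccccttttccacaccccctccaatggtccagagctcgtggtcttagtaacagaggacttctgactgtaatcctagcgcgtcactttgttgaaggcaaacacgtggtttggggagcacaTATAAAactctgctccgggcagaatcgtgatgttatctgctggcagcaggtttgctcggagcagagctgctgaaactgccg
Inhba: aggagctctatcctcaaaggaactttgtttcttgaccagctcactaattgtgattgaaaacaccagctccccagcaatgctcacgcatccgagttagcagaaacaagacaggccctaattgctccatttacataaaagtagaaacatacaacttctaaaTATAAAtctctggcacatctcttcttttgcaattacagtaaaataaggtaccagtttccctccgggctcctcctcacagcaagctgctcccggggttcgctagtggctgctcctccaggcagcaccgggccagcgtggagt
The ligand windows differed in composition. The Tgfb1 window was 77.0% G and C and held 6 GC boxes and no TATAAA, whereas the Tgfb2 window was 54.3% G and C and held a TATAAA beginning 31 bases before the start site, a CAGACA beginning 204 bases before it, and no GC box. The Inhba window was 47.7% G and C and held 1 TATAAA, beginning 91 bases before its start site. Of 32851 windows in the mouse table, 21.0% held CAGACA, 13.6% TATAAA and 35.7% GGGCGG. None of the windows of the 6 genes held GTCTAGAC (the palindromic SMAD element, in 0.213% of all windows), TGANTCA (the AP-1 element, 7.81%) or GGAATG (the TEAD element, 14.7%). Smad7 was left out of the search, and the RefSeq table held no window for Tgfb3, Tgfbr3 and Cd109. This absence therefore says nothing of the promoters of those genes. TATAAA and GGGCGG were added to the search after the sequences had been seen. These matches are letters in a window, not measured binding.

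All 3 ligand transcripts were lower in the knockout. TGF-beta 1 is the isoform most studied in liver fibrosis, and its gene Tgfb1 read 5.73, 5.93, 5.91 and 5.91 on the log2 scale in knockout arrays 1 to 4, against 6.52, 6.53, 6.47 and 6.58 in wild-type arrays 1 to 4. All knockout arrays lay below all wild-type arrays, and knockout array 1 was set apart from the other 3. The log2 fold change was -0.65 ± 0.064 (SE), a 1.57-fold lower signal, with an adjusted p of 0.00013 in limma. Tgfb2 encodes the isoform that depends most on betaglycan for binding to the type II receptor. It read 4.16, 4.55, 4.39 and 4.28 in knockout arrays, against 5.09, 5.11, 4.82 and 4.96 in wild-type arrays. These are dim signals, with the knockout mean of 4.34 at the level of the array medians, and the groups still did not overlap (-0.65 ± 0.10, adjusted p = 0.0017). At that level a signal cannot be told from no expression, so the change of the Tgfb2 transcript may be larger than that of its signal. Tgfb3, the third isoform, had the largest change of the ligands. It read 6.55, 6.67, 6.59 and 6.52 in knockout arrays, against 7.80, 7.67, 7.80 and 7.83 in wild-type arrays. The gap between the groups was 0.999, many times the SD within either group (0.065 in knockout and 0.071 in wild-type cells), and the log2 fold change was -1.19 ± 0.062 (2.28-fold lower, adjusted p = 4.16e-06). Only 0.636% of all genes had a lower log2 fold change than Tgfb3.

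**Figure D1:**
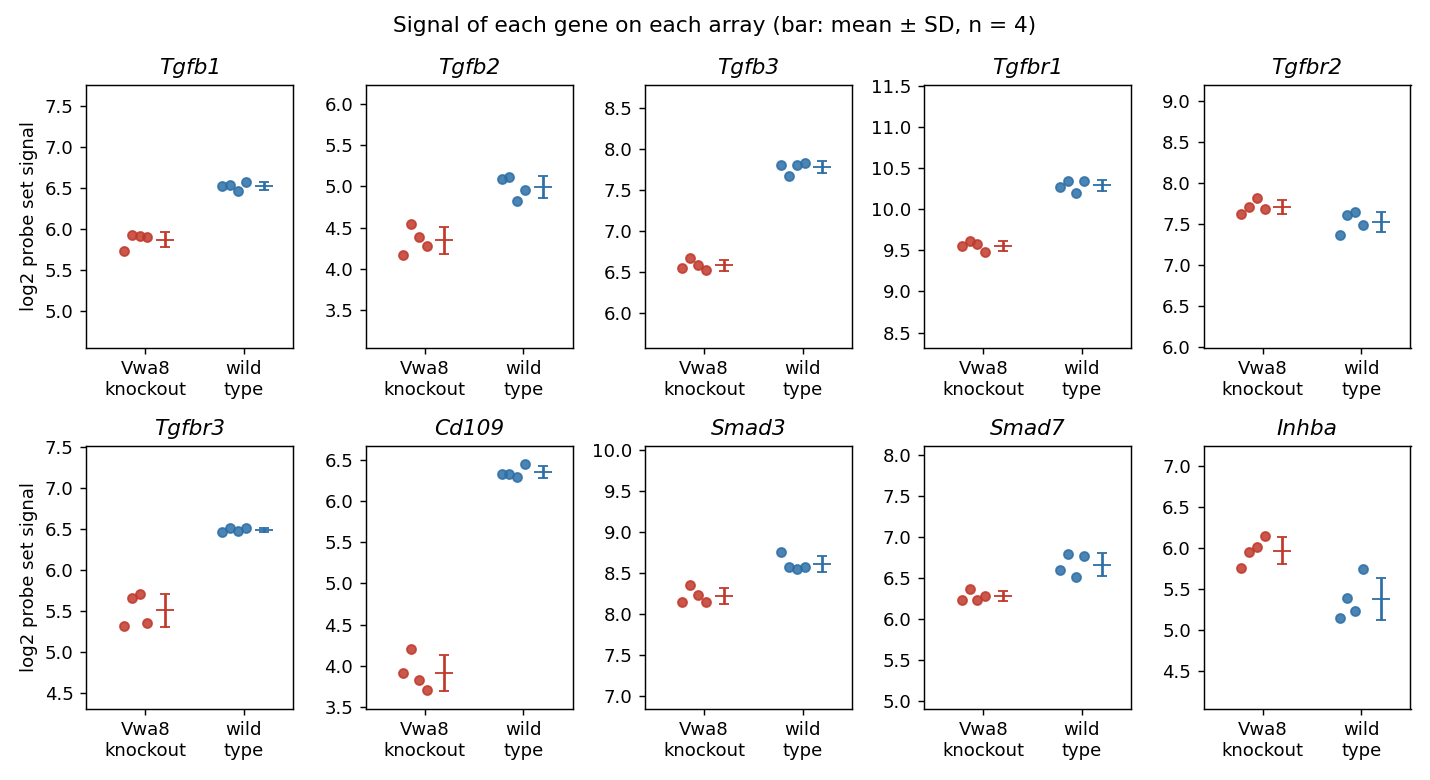
Log2 probe set signal of each of the 10 genes (y axis, every panel spanning the same width) on the 4 Vwa8 knockout arrays (red, left) and the 4 wild-type arrays (blue, right), with bars for mean ± SD. Knockout points lie below all wild-type points for 8 genes, above them for Inhba, and overlap them for Tgfbr2.

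The signal of Tgfb3 fell by more than that of Tgfb1. Within each array the log2 value of Tgfb1 was subtracted from that of Tgfb3, and this difference averaged 0.71 ± 0.088 in knockout cells and 1.25 ± 0.082 in wild-type cells (SD, n = 4 each), a change of -0.54 ± 0.060 (SE). For Tgfb3 minus Tgfb2 the change of the signals was also -0.54 ± 0.107, with averages of 2.24 ± 0.112 in knockout cells and 2.78 ± 0.183 in wild-type cells. Both gave p = 0.0286 in a two-sided exact permutation test over the 70 arrangements of the arrays, the smallest value 4 against 4 arrays allow, and p = 0.040 after adjustment over the 7 pairs of genes compared in this way. The signals of Tgfb2 minus Tgfb1 changed by 0.002 ± 0.080 (SE, exact permutation p = 1.0). Because Tgfb2 was as dim as the array median in the knockout, neither difference that involves it shows whether its transcript fell by less than, as much as or more than those of Tgfb1 and Tgfb3.

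The receptors went different ways. Tgfbr1, the type I receptor kinase, read 9.55, 9.61, 9.58 and 9.48 in knockout arrays, against 10.27, 10.35, 10.20 and 10.34 in wild-type arrays. All knockout arrays were lower than all wild-type arrays (-0.74 ± 0.061, 1.67-fold, adjusted p = 4.84e-05). Tgfbr3 encodes betaglycan, a proteoglycan that binds TGF-beta and inhibin and has no kinase. It read 5.31, 5.66, 5.71 and 5.36 in knockout arrays, against 6.46, 6.51, 6.47 and 6.51 in wild-type arrays. The knockout arrays formed a lower pair (1 and 4) and a higher pair (2 and 3), with an SD of 0.20 against 0.024 in wild type, and both pairs lay far below wild type (-0.98 ± 0.096, 1.97-fold, adjusted p = 0.000133). Tgfbr2, the type II receptor that binds ligand first, read 7.63, 7.71, 7.82 and 7.68 in knockout arrays, against 7.37, 7.61, 7.65 and 7.49 in wild-type arrays. The groups overlapped at the edge, and Tgfbr2 did not pass the test (0.18 ± 0.079, 95% interval 0.006 to 0.36, adjusted p = 0.147).

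The difference between the receptors was itself tested. Tgfbr2 minus Tgfbr1 within an array averaged -1.84 ± 0.080 in knockout cells and -2.76 ± 0.155 in wild-type cells (SD, n = 4 each), a change of 0.92 ± 0.087 (SE) in favour of Tgfbr2. Tgfbr3 minus Tgfbr2 changed by -1.16 ± 0.092, and Tgfbr3 minus Tgfbr1 by -0.24 ± 0.086. Each of these gave the smallest exact permutation p, 0.0286, and p = 0.040 after adjustment over the 7 pairs. The type I and type III receptor transcripts were thus lower relative to the type II receptor transcript on the knockout arrays. These are changes of ratios between probe sets and do not give the amounts of one receptor transcript relative to another. For Tgfbr3 minus Tgfbr1 the groups nearly met, with a knockout highest of -3.873 and a wild-type lowest of -3.847. With the median change of neighbouring genes subtracted, Tgfbr3 stood at -0.79 and Tgfbr1 at -0.75. Whether these 2 changed unequally was not tested in that setting.

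**Figure D2:**
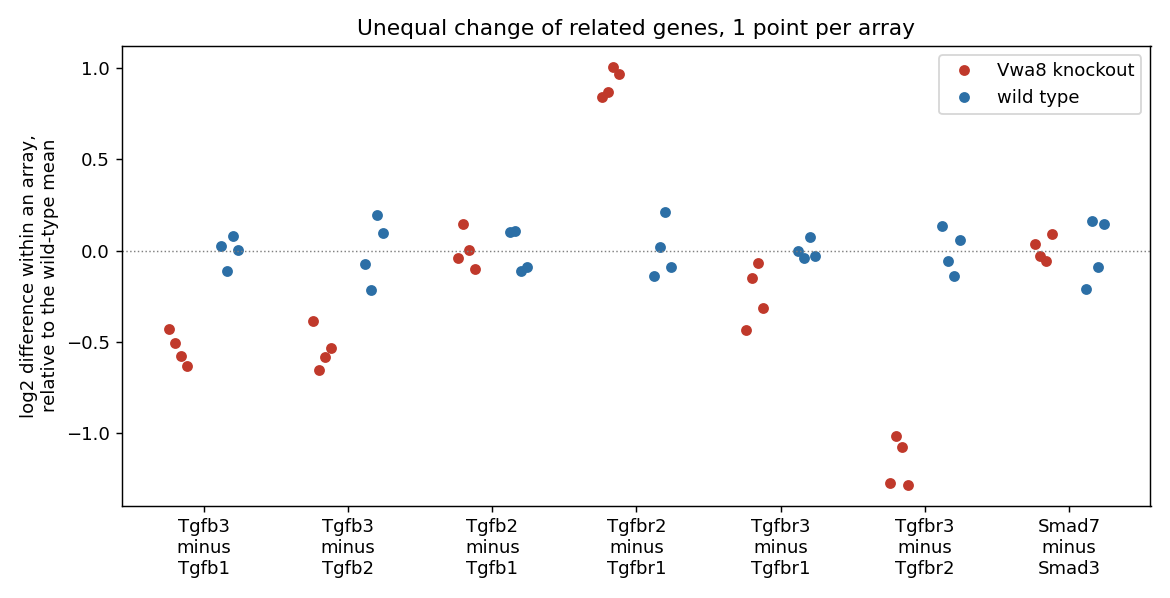
Difference between the log2 values of 2 genes on the same array, minus the wild-type mean of that difference (y axis), for the 7 pairs of genes, with Vwa8 knockout arrays in red to the left of wild-type arrays in blue. The groups separate in 5 pairs and overlap for Tgfb2 minus Tgfb1 and for Smad7 minus Smad3.

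Cd109 had the largest change of the 10 genes. It encodes a protein anchored to the membrane by a lipid that binds TGF-beta and, in human keratinocytes, lowers signalling by taking the receptors into caveolae for degradation. It read 3.91, 4.21, 3.82 and 3.70 in knockout arrays, against 6.33, 6.33, 6.29 and 6.46 in wild-type arrays. The knockout values were below the array medians, and a gap of 2.09 separated the groups. The log2 fold change was -2.44 ± 0.106 (5.44-fold lower, adjusted p = 1.52e-06), and Cd109 ranked 20 of 22180 by absolute change. A signal that dim cannot be told from no expression in these data, so the fold is that of the signals. The 3 genes above the median brightness whose values followed Cd109 most closely over the 8 arrays, with Pearson r of 0.9993, 0.9993 and 0.9983, were Tmpo (a lamina-associated protein), Trrap (a scaffold of histone acetyltransferase complexes) and Mcm4 (a subunit of the replicative helicase). Each r includes the genotype difference that the genes share. The r of the deviations from the group means over the same arrays was 0.944, 0.949 and 0.881, as a description of these 8 arrays chosen from 11089 genes.

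Both SMAD genes among the 10 fell. SMAD3 carries the signal to the nucleus, and Smad3 read 8.15, 8.35, 8.24 and 8.15 in knockout arrays, against 8.76, 8.58, 8.55 and 8.57 in wild-type arrays. Wild-type array 1 stood above the other 3, and the groups were separated by 0.199 (-0.39 ± 0.073, 1.31-fold, adjusted p = 0.0049). SMAD7 is the inhibitory SMAD that is itself induced by TGF-beta and blocks the type I receptor. Smad7 read 6.24, 6.37, 6.23 and 6.29 in knockout arrays, against 6.59, 6.79, 6.51 and 6.77 in wild-type arrays. The groups were separated by 0.137 (-0.38 ± 0.078, adjusted p = 0.0079). No unequal change of mediator and inhibitor was detected. Smad7 minus Smad3 within an array averaged -1.94 ± 0.066 in knockout cells and -1.95 ± 0.182 in wild-type cells (SD, n = 4 each), a change of 0.01 ± 0.097 (exact permutation p = 0.943).

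Inhba was the only one of the 10 genes that rose past the adjusted threshold. Its product, the inhibin beta A chain, forms activin A, a TGF-beta family ligand that signals through its own type II receptors to SMAD2 and SMAD3 and restrains hepatocyte growth. It read 5.76, 5.95, 6.02 and 6.15 in knockout arrays, against 5.15, 5.40, 5.24 and 5.74 in wild-type arrays. The lowest knockout array was only 0.019 above the highest wild-type array, and wild-type array 4 was the highest of its group. The log2 fold change was 0.59 ± 0.136, with a 95% interval of 0.28 to 0.90 on the log2 scale (adjusted p = 0.014).

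Counted together, 8 of the 10 genes fell and 1 rose at an adjusted p of 0.05 in limma. Of all 22180 genes, 20.9% passed, 10.4% lower and 10.4% higher. Each of the 10 genes was brighter than at least 51.0% of all genes. Without the dimmest 50% of genes, 5431 genes passed, more than the 4626 that passed among all 22180. That setting held 11089 genes besides Cd109. The 20.9% is therefore lower than the share among the brighter 50%. By non-overlap of the groups the same 8 genes were lower and Inhba was higher, where 26.1% of all genes had groups that did not overlap, 13.2% lower and 12.9% higher. The median log2 fold change of the 10 was -0.65, against -0.003 over all genes, of which the central 90% lay between -0.44 and 0.45. The 10 genes were picked with results of these data known, so their counts describe them and carry no test as a group. Around each of the 10 genes, the 30 bright genes nearest on each side of the chromosome had a median log2 change between -0.19 (around Tgfbr3) and 0.05 (around Smad7).

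**Figure D3:**
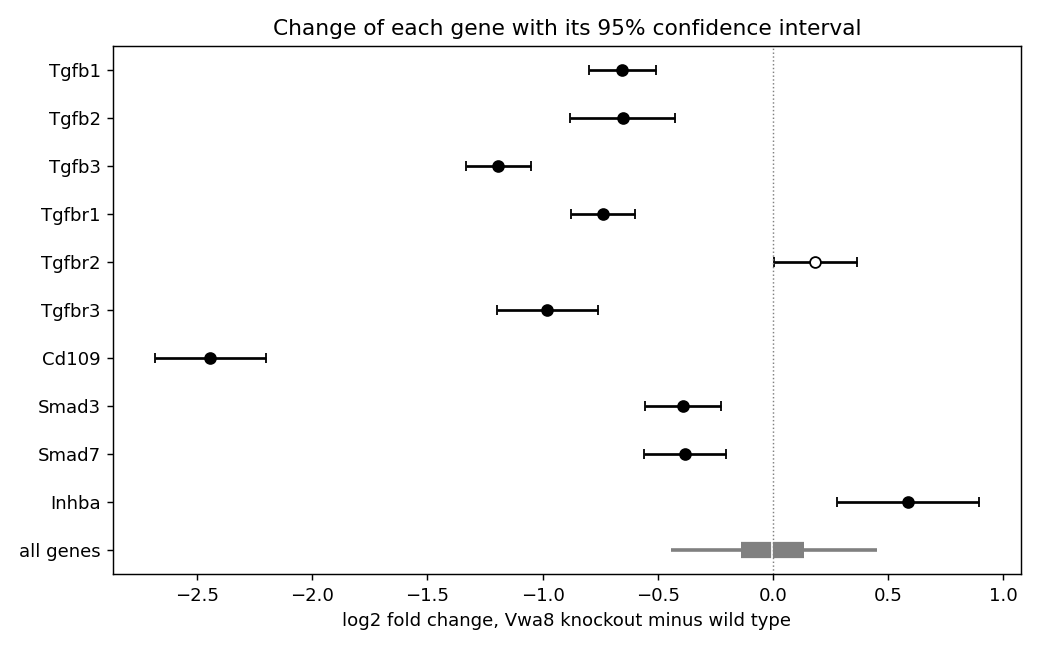
Log2 fold change, Vwa8 knockout minus wild type (x axis), of each gene with its 95% confidence interval from limma. Filled points passed an adjusted p of 0.05, the open point (Tgfbr2) did not, and the grey bar gives the middle 50% (thick) and middle 90% (thin, -0.44 to 0.45) of all genes.

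Genes of TGF-beta storage and activation fell in 8 of 23 cases and rose in 1 (median -0.15). In all 39.1% passed, against 20.9% of all genes (10.4% in each direction). The list was not matched to all genes for brightness, and 20.9% is lower than the share among brighter genes. Without the dimmest 50% of genes, 6 of the list passed, among 5431 genes in total. Ltbp4, a latent TGF-beta binding protein that tethers the latent ligand to the matrix, averaged 5.34 in knockout cells and 6.39 in wild-type cells, a log2 fold change of -1.05 ± 0.088 (adjusted p = 5.38e-05). Its relative Ltbp1 fell by 0.37 on the log2 scale (-0.37 ± 0.077, adjusted p = 0.0081). The plasminogen activators Plat and Plau stood at -1.10 ± 0.095 and -1.003 ± 0.123. Plg, which encodes plasminogen, the liver-made protease precursor that they activate and that can release latent TGF-beta, rose by 1.11 ± 0.078 (adjusted p = 2.09e-05).

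Of 28 other SMADs and SMAD regulators, 5 fell and 3 rose (median -0.09), and this 28.6% stood beside 20.9% of all genes. The 8 that passed became 5 with the replicate number as a block, 15 with an intensity trend and robust variances, and 14 without the dimmest 50% of genes. In the same settings 3717, 5573 and 5431 of all genes passed, against 4626 in the main fit. The last setting tests only the brighter 50% of genes, so 20.9% is not the share to set beside its 14. There 5431 genes passed, of Cd109 and 11089 others tested. Smad2, the partner of Smad3 under the same receptors, averaged 7.96 in knockout cells and 7.95 in wild-type cells (0.01 ± 0.070, adjusted p = 0.953). Smad4, the shared SMAD that joins all activated SMADs, did not pass at -0.15 ± 0.057 (adjusted p = 0.112). Smad6, the inhibitory SMAD of the BMP branch, fell (-0.71 ± 0.101, adjusted p = 0.0010). So did Pmepa1, a TGF-beta-induced inhibitor of SMAD activation (-0.49 ± 0.089, adjusted p = 0.0042). The ubiquitin ligases that act on SMADs and receptors went both ways, with Smurf1 lower (-0.54 ± 0.068) and Smurf2 and Wwp1 higher (0.20 ± 0.053 and 0.35 ± 0.068). The other gene that rose was Tgfbrap1, which encodes a receptor-associated protein (0.31 ± 0.070).

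The activin and inhibin branch was mixed. Of 15 measured genes besides Inhba, 3 rose and 2 fell (median 0.03), which is 33.3% of the list against 20.9% of all genes. Without the dimmest 50% of genes, 5 of the list passed, among 5431 genes in total. Inhbb, the gene of the beta B chain, fell while Inhba rose. It averaged 5.57 in knockout cells and 6.41 in wild-type cells (-0.84 ± 0.062, adjusted p = 2.71e-05). Gdf11, a related ligand, also fell (-0.47 ± 0.105). The receptor genes Acvr1 (type I) and Acvr2a (type II) rose by 0.47 ± 0.070 and 0.31 ± 0.065. The other receptor genes of the list did not pass. Acvr1b and Acvr1c (type I) stood at 0.03 ± 0.059 and -0.13 ± 0.095, and Acvr2b (type II) at -0.34 ± 0.121. In the branch of bone morphogenetic proteins (BMPs), which signals through SMAD1, SMAD5 and SMAD9, 3 of 25 genes rose and 3 fell (median -0.05). The share that passed, 24.0%, was near the 20.9% of all genes, and the genes named next are described singly. Bmp4, a ligand, rose by 0.70 ± 0.089, Hjv, a BMP co-receptor known for iron control, by 0.59 ± 0.078, and Bmpr2, a type II receptor, by 0.36 ± 0.058. Hjv was dim, averaging 4.76 in knockout cells and 4.17 in wild-type cells. The wild-type signal lay below the array medians and cannot be told from no expression. Id1, a target of BMP signalling, stood at -0.44 ± 0.104 (adjusted p = 0.015).

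Genes known as targets of TGF-beta and SMAD3 changed in both directions. Of 36 measured, 12 fell and 6 rose (median -0.13), in all 50% of the list, against 20.9% of all genes (10.4% in each direction). This list was not matched for brightness either. Without the dimmest 50% of genes, 21 of it passed, among 5431 genes in total. Among those that fell were Edn1, which encodes endothelin 1 (-1.82 ± 0.099), the matricellular protein gene Ccn1 (-1.51 ± 0.080, adjusted p = 4.46e-06) and Pdgfb, a growth factor for mesenchymal cells (-1.31 ± 0.082). Postn, which encodes the matrix protein periostin, had the largest change of the list and rose. It averaged 9.98 in knockout cells and 7.31 in wild-type cells, a log2 fold change of 2.67 ± 0.072 (adjusted p = 2.59e-07). The other 5 that rose were Nox4, Angptl4, Fn1, Lmcd1 and Bhlhe40, named after their values were seen, with log2 fold changes from 0.24 to 0.67. Ccn2, a widely used target, did not change past the threshold, at 0.11 ± 0.062 (adjusted p = 0.255), and its dimmer probe set differed by 0.01. Many of these genes also respond to other pathways, and the list was chosen with earlier results of these data known.

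**Figure D4:**
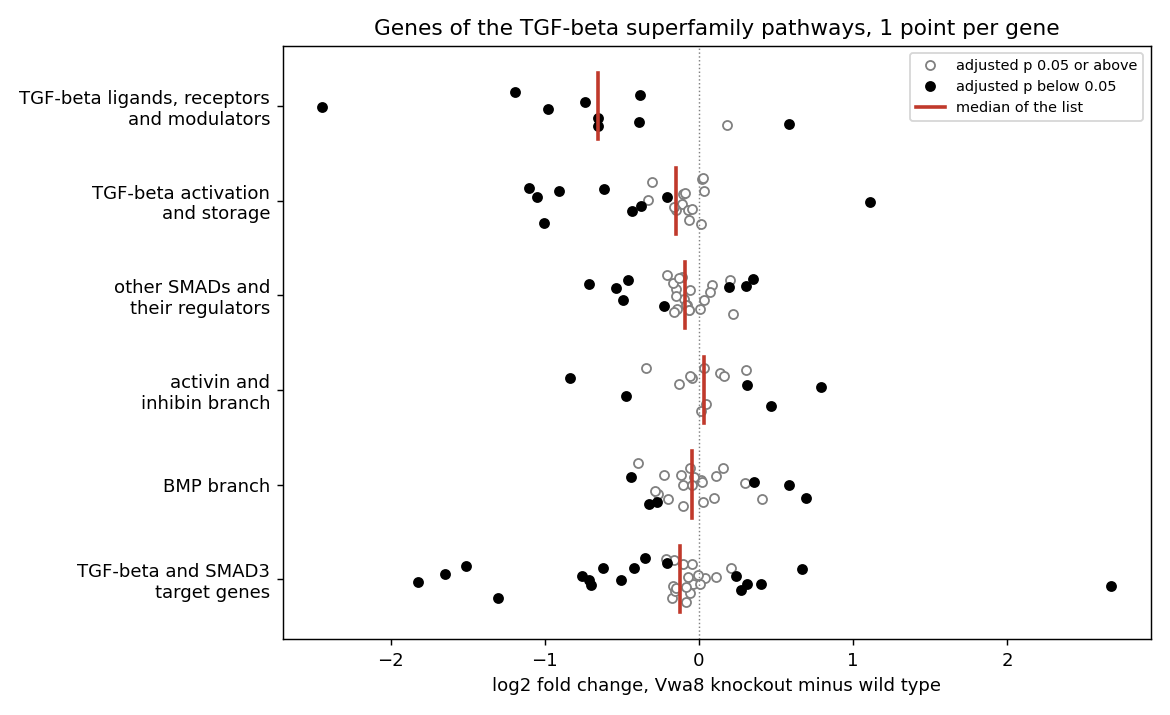
Log2 fold change, Vwa8 knockout minus wild type (x axis), of every measured gene in 6 lists (rows), 1 point per gene, filled where the adjusted p was below 0.05. Red lines are list medians, from -0.65 for the 10 ligand, receptor and modulator genes to 0.03 for the activin and inhibin branch, and the point at 2.67 is Postn.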

How the data were processed

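Biotin-labelled RNA of 4 knockout and 4 wild-type cultures was hybridised to Affymetrix mouse arrays, per the labels' protocols. The deposited values are 1 log2 signal per probe set and array. The log2 scale was inferred from the values; the sources used here do not state the background correction, normalization or summarisation. The 4 arrays per group limit the precision. The design text speaks of separate cultures, and p-values measure only the spread between them.

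Of 41345 probe sets, 23521 had 1 symbol in the platform annotation, 1814 several and 16010 none listed. Each of 22180 genes was represented by its probe set with the highest mean over the 8 arrays. The model in limma 3.58.1 under R 4.3.3 held genotype alone. Its two-sided p-values were adjusted over the 22180 genes (Benjamini-Hochberg), with a threshold of 0.05. The fit was tested on simulated data. For 7 pairs of genes the within-array difference was compared by an exact permutation test (scipy 1.17.1). Plots used matplotlib 3.10.9 in Python 3.11.15.

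The 10 genes, the lists and the tests were chosen with earlier results of these data known. Beside the 10 genes and Vwa8, the text names up to 4 genes of each list by smallest adjusted p, up to 5 that passed against a list's majority, Ccn2, Ltbp1, Smad2 and Smad4 whatever their values, and the 3 genes most correlated with the gene of smallest adjusted p. Acvr1b, Acvr1c and Acvr2b are also named, as the other type I and type II receptor genes of their list. A planned look at further probe sets of the 10 genes had none to use. Same-numbered arrays of the 2 genotypes deviated together little (r of -0.0015 to 0.059), so they were not paired. Differently numbered arrays had r of -0.061 to 0.041, and the 0.059 of the arrays numbered 1 was the highest of all. The alternatives tried were leaving out each array, a replicate block, median centring or quantile normalization, array weights, robust variances with an intensity trend, dropping genes in the lowest 25% or 50% of brightness, averaging probe sets per gene, and subtracting the median change of the 30 nearest bright genes on each side.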

Additional observations from a re-analysis of the deposited data

Results flagged for a closer look

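In 2 of the 20 sets of 4 arrays (10 genes in 2 genotypes) a single array lay far from the other 3 relative to the range of the set. For Tgfb1 it was knockout array 1, at 5.73 against 5.91 to 5.93 on the other knockout arrays, with a gap of 0.880 of the range. For Smad3 it was wild-type array 1, at 8.76 against 8.55 to 8.58 on the other wild-type arrays, with a gap of 0.850 of the range. Chance gives about 1 such set in 20. Leaving out any one array kept Tgfb1 between -0.67 and -0.61 and Smad3 between -0.43 and -0.34, past the threshold each time.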

How the results depend on the processing

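The 8 falls and the rise of Inhba passed the threshold, and Tgfbr2 missed it, under every one of the 17 alternatives to the comparison of genotypes. The highest adjusted p were 0.0411 for Inhba, 0.0273 for Smad3 and 0.0269 for Smad7, and that of Tgfbr2 ran from 0.0539 to 0.297. With the replicate number as a block, 5 of the other SMAD genes passed in place of 8, with an intensity trend and robust variances 15, and without the dimmest 50% of genes 14; the block changed no call among the 10 genes. All genes past the threshold numbered 3717 to 5573. For the within-array differences the smallest exact permutation p is 0.125 with the replicate block, where the changes keep their values of -0.54 (Tgfb3 minus Tgfb1), -0.54 (Tgfb3 minus Tgfb2), 0.92 (Tgfbr2 minus Tgfbr1), -0.24 (Tgfbr3 minus Tgfbr1) and -1.16 (Tgfbr3 minus Tgfbr2), and 0.0571 with 1 array left out, so none can pass there by construction. Without 1 array they ran, in that order, from -0.58 to -0.51, from -0.61 to -0.47, from 0.88 to 0.99, from -0.30 to -0.18 and from -1.21 to -1.12. Averaging probe sets per gene leaves the 10 genes as they are. Cd109 and Tgfb2 are dim in the knockout, and a dim signal limits how large a fold can be read.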
